A study of Mus musculus with 5 samples.

Results

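Voltage-gated and potassium ion channels were described in sorted cells of the mouse small intestine. The members were taken by symbol from a table of 22042 genes: every gene whose symbol starts with Scn or Hcn and a digit, Cacna, Cacnb, Cacng or Kcn, without Kcnj8 and Kcnj11. The rule gave 111 genes and used no measured value. 52 of the 111 had a mean of at least 10 normalized counts over the libraries, and the others were kept in every count. By subunit, the members are 7 voltage-gated sodium channel (Nav) alpha and 3 Nav beta subunits, 4 HCN channels, 10 voltage-gated calcium channel (Cav) alpha1, 4 alpha2delta, 4 Cav beta and 4 Cav gamma subunits, 29 voltage-gated potassium channel (Kv) pore subunits, 11 Kv accessory subunits, 11 inward rectifiers (Kir), 12 two-pore leak channels (K2P) and 12 subunits of potassium channels gated by calcium or sodium.

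Enteroendocrine cells (EECs) are the hormone-secreting cells of the gut epithelium, and many of them are electrically excitable. Sodium and calcium channels open when the membrane is depolarized, and calcium entry through Cav channels triggers the fusion of hormone granules. Potassium channels set the resting potential and end each action potential, while HCN channels carry an inward current on hyperpolarization and can drive repetitive firing.

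The bulk data came from Cck-Cre mice on a C57Bl/6J background, 6 to 8 weeks old, that carry a tdTomato reporter in the Rosa26 locus (R26-LSL-tdTomato) which is switched on in any cell with a history of Cck promoter activity. From each of 6 mice, tdTomato-positive (CCK+) and tdTomato-negative (CCK-) epithelial cells of the small intestine were sorted and sequenced as bulk RNA, which gives 12 libraries in 4 groups of 3. Mice A, B and F were fasted overnight, whereas mice C, D and E received the liquid diet Ensure after the fast. A further droplet library held single tdTomato-positive cells pooled from 4 mice of the same background, 6 weeks old, with the reporter driven by Neurog3-Cre, which marks progeny of endocrine progenitors and, as the data show, many goblet and Paneth cells. Both reporters record lineage, so a labelled cell need not express the driver gene at the time of the sort.

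Cck was at 14840 to 32590 normalized counts in CCK+ libraries and at 27.6 to 86.0 in CCK- libraries, so every library matched its label. The summed level of 9 EEC markers was 63920 to 235400 normalized counts in CCK+ libraries and 1245 to 2681 in CCK- libraries. Other cells were also present. Enterocyte markers summed to 163200 to 410400 in CCK+ and 449600 to 627200 in CCK- libraries, and 8 lymphocyte and immune markers summed to 2163 to 3906 in CCK+ and 216 to 425 in CCK- libraries, with 8 of 8 called higher in CCK+. Neuron markers (6 genes) summed to 23.8 to 90.7 in CCK+ and 0.744 to 11.1 in CCK- libraries, with 3 of 6 called higher. The CCK+ fasted library of mouse B stood apart, with the lowest EEC marker sum (63920) and the lowest summed channel level of the CCK+ libraries, 649 per 1000000 normalized counts against 1071 to 1952 in the other 5. In bulk RNA, fewer cells that express a channel and less channel RNA per cell cannot be told apart.

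The first comparison asked which channels are enriched in CCK+ cells relative to the rest of the epithelium. The summed channel level was higher in every CCK+ library than in any CCK- library. It was 649 to 1952 per 1000000 of a library's normalized counts in CCK+ libraries and 226 to 243 per 1000000 in CCK- libraries. limma was fitted across all 22042 genes on log2(normalized count + 1), a scale that understates the change of genes with low values, with a Benjamini-Hochberg adjusted p under 0.05 as the call. 46 of 111 channels were called higher in CCK+ cells and 5 lower, and 60 were not called. Of all genes tested, 33.7% were called, 19.6% higher and 14.1% lower. The family counts below are to be read beside these shares. The median log2 difference was 0.89 over the channels and 0.09 over all genes. For 31 channels every CCK+ library lay above every CCK- library, and for none did every CCK+ library lie below, where 9.74% of all genes were separated upward and 5.93% downward. Under quantile normalization, which moved the median over all genes from 0.09 to -0.14, the split was 42 higher and 12 lower.

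**Figure D1:**
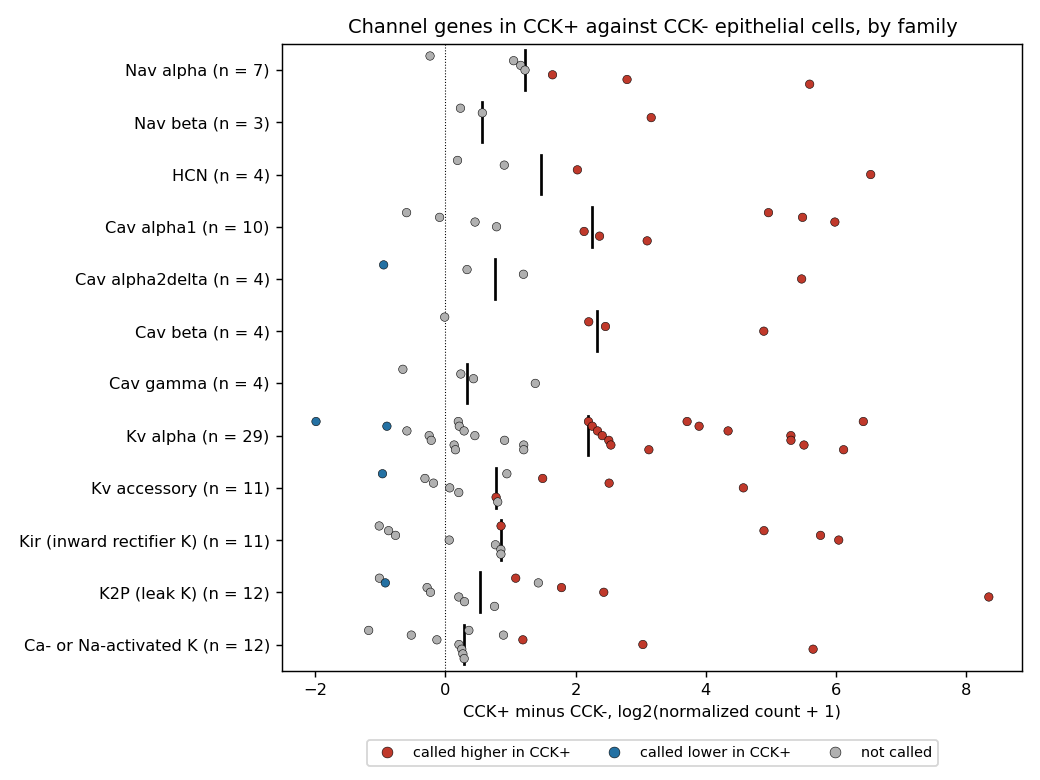
Each point is 1 of the 111 channel genes, placed by family (rows) and by its log2 difference, CCK+ minus CCK-, in log2(normalized count + 1); bars are family medians, red points were called higher in CCK+ cells and blue points lower. In the Kv pore family 15 of 29 genes were called higher and 2 lower, and none of the 4 Cav gamma genes was called.

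Among sodium channels, 3 of 7 alpha subunits and 1 of 3 beta subunits were called higher and none lower. Scn3a encodes Nav1.3, a fast sodium channel of endocrine and immature neuronal cells. Its lowest, median and highest levels were 483, 798 and 1205 normalized counts in CCK+ libraries and 8.79, 13.4 and 28.6 in CCK- libraries. All 6 CCK+ libraries stood above all 6 CCK- libraries, with a mean 51.1 times higher (log2 difference 5.59 ± 0.28 SE, n = 6 per population, limma adjusted p = 3.93e-09). Scn8a, which encodes the neuronal channel Nav1.6, ranged from 24.1 through a median of 102 to 137 in CCK+ and from 6.88 through 9.99 to 17.9 in CCK- libraries. The populations did not overlap (log2 difference 2.79 ± 0.36, limma adjusted p = 3.13e-05). Scn3b, an auxiliary beta subunit that modifies gating, was at 26.3 to 205 in CCK+ and 1.95 to 15.1 in CCK- libraries, again without overlap (limma adjusted p = 0.000284). Scn7a, a sodium-sensing member of the family, was called higher at very low levels, 0 to 8.50 in CCK+ libraries, and it was listed at 0 in all 6 CCK- libraries (limma adjusted p = 0.00902). Scn9a encodes Nav1.7, the channel of nociceptive neurons. It was at 4.25 to 23.2 in CCK+ and 1.55 to 7.10 in CCK- libraries, which overlapped, and it was not called (limma adjusted p = 0.125).

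HCN channels were called higher in 2 of 4 cases. Hcn4, the main pacemaker channel of the heart, was at 217, 375 and 497 normalized counts (lowest, median, highest) in CCK+ libraries and at 0, 3.50 and 5.96 in CCK- libraries. The populations were far apart (log2 difference 6.53 ± 0.40 SE, limma adjusted p = 2.88e-08).

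In the calcium channels, 6 of 10 pore-forming alpha1 subunits were called higher and none lower, among them P/Q-, L- and T-type pores. Cacna1a, the P/Q-type pore that triggers transmitter release at nerve terminals, was at 2338, 504 and 1282 normalized counts in the fasted CCK+ libraries of mice A, B and F, and at 1097, 1791 and 2139 in the refed CCK+ libraries of mice C, D and E. Its CCK- libraries were at 17.8 to 50.1, so even the lowest CCK+ library stood above them (log2 difference 5.49 ± 0.34 SE, limma adjusted p = 3.16e-08). Cacna1h, a T-type pore that opens near resting potential, was at 175, 574 and 1122 (lowest, median, highest) in CCK+ and 3.07, 6.27 and 34.9 in CCK- libraries, with no overlap (log2 difference 5.98 ± 0.37, limma adjusted p = 3.16e-08). The L-type pores Cacna1c and Cacna1d, which carry slow calcium entry in secretory cells, differed in spread. Cacna1c was at 73.1 to 163 in CCK+ and 0 to 8.33 in CCK- libraries (limma adjusted p = 2.95e-06), whereas Cacna1d ran from 52.3 to 615 around a median of 129 in CCK+ libraries, against 20.5 to 43.3 in CCK- libraries (limma adjusted p = 0.00202). Cacna1g, another T-type pore, was at 0.826 to 45.2 against 0 to 0.509 (limma adjusted p = 0.00106), and the 6 CCK+ libraries differed widely among themselves.

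The auxiliary calcium channel subunits moved with the pores in part. Cacna2d1, an alpha2delta subunit that carries channels to the membrane and binds gabapentin, was at 299, 958 and 1124 normalized counts (lowest, median, highest) in CCK+ and 12.4, 14.8 and 22.7 in CCK- libraries. No libraries overlapped (log2 difference 5.47 ± 0.27 SE, limma adjusted p = 3.28e-09). Its relative Cacna2d4, best known from photoreceptors, was called lower, at 69.7 to 142 in CCK+ and 137 to 263 in CCK- libraries (log2 difference -0.94 ± 0.18, limma adjusted p = 0.000867), with 1 library of overlap. Of the cytoplasmic beta subunits, which bind the pore and regulate its gating, 3 of 4 were called higher. Cacnb2 was at 43.9 to 163 against 0 to 7.16 (limma adjusted p = 1.21e-06) and Cacnb3 at 181 to 416 against 32.8 to 104 (limma adjusted p = 2.53e-06), each without overlap. Cacnb1 was also called higher, at 4.01 to 36.0 against 0 to 5.50 (limma adjusted p = 0.0021). None of the 4 gamma subunits was called in either direction.

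Kv pore subunits were called higher in 15 of 29 cases and lower in 2. Kcnb2, a delayed rectifier of the Kv2 group, was at 403, 719.5 and 978 normalized counts (lowest, median, highest) in CCK+ and 6.72, 8.97 and 11.6 in CCK- libraries, with no overlap (log2 difference 6.12 ± 0.23 SE, limma adjusted p = 1.59e-10, the lowest of all 111 channels). Kcnc1, a Kv3 channel that allows fast repetitive firing, was at 1076, 341 and 628 in CCK+ libraries of fasted mice A, B and F and at 733, 1706 and 1594 in those of refed mice C, D and E, against 16.4 to 21.0 in CCK- libraries (limma adjusted p = 2.29e-09). All CCK+ libraries were above all CCK- libraries, and the CCK+ libraries differed among themselves more than the CCK- libraries did.

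The Erg channels give a current that repolarizes slowly firing cells. Kcnh6 was at 132, 411 and 536 normalized counts in CCK+ and 1.05, 4.29 and 6.83 in CCK- libraries (lowest, median, highest, log2 difference 6.42 ± 0.42 SE, limma adjusted p = 4.61e-08). Kcnh2, the Erg channel of the heart, was at 35.8, 52.5 and 80.1 against 0, 0 and 3.08 (limma adjusted p = 5.42e-07). Both separated the populations in all libraries. Kcnq1, which repolarizes the heart and supports secretion in epithelia, was at 199, 272 and 461 against 41.5, 54.9 and 63.3 (log2 difference 2.41 ± 0.22, limma adjusted p = 1.26e-06). Unlike the Erg channels, it was clearly above 0 in every CCK- library.

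Kcna3 encodes Kv1.3, a channel well known from T lymphocytes. It was at 0 to 14.5 normalized counts in CCK+ and 0 to 1.11 in CCK- libraries and was called higher (limma adjusted p = 0.00203). The summed immune markers moved in the same direction (2163 to 3906 against 216 to 425), and their part in the Kcna3 difference was not tested. No UMI of Kcna3 was seen in 1246 Cck-gated cells of the droplet library, so up to 0.241% of these cells could have held one. Of the 2 Kv pores called lower, Kcns3, a silent modifier subunit, was at 0 to 3.44 in CCK+ and 1.49 to 19.96 in CCK- libraries, with overlap (limma adjusted p = 0.0038).

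Kv accessory subunits were called higher in 4 of 11 cases and lower in 1. Kcnab3, a cytoplasmic beta subunit, was at 16.0 to 66.7 normalized counts in CCK+ and 0 to 1.86 in CCK- libraries, without overlap (limma adjusted p = 2.48e-06). Kcnab2, of the same group, was called higher (6.69 to 19.2 against 0 to 10.1, limma adjusted p = 0.00622), whereas Kcnab1 was called lower (9.10 to 25.1 against 20.5 to 37.1, limma adjusted p = 0.0248). The 3 related subunits thus differed in direction. Kcnip3, a calcium-binding partner of Kv4 channels, was called higher with overlap (at most 22.4 against at most 12.9, limma adjusted p = 0.0233). It lost its call without the CCK+ refed or the CCK- refed library of mouse E and without the CCK- fasted library of mouse A, and its adjusted p ran from 0.00163 to 0.208 over the alternatives. Kcne1l was called higher at 0 to 3.41 in CCK+ libraries, listed at 0 in all CCK- libraries (limma adjusted p = 0.0361), but not with mouse as a fixed block (limma adjusted p = 0.0653).

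Inward rectifiers were called higher in 4 of 11 cases and none was called lower. 3 of the 4 are pore subunits of GIRK channels, which open when G protein beta-gamma subunits are released by an inhibitory receptor. Kcnj3 was at 48.8, 123 and 249.9 normalized counts in CCK+ libraries (lowest, median, highest) and at most 2.33 in any CCK- library (log2 difference 6.04 ± 0.44 SE, limma adjusted p = 1.28e-07). Kcnj5 was at 36.4, 203 and 260.5 against a highest CCK- value of 7.45 (log2 difference 5.76 ± 0.45, limma adjusted p = 2.7e-07), and Kcnj6 was at 12.1, 34.2 and 101 against a highest CCK- value of 1.30 (log2 difference 4.89 ± 0.47, limma adjusted p = 2.23e-06). None of the 3 overlapped between populations, and fasted mouse B had the lowest CCK+ level of Kcnj3 and Kcnj5. Kcnj2, a strong rectifier that holds the resting potential, differed less, at 157 to 270.2 against 100.4 to 144 (log2 difference 0.86 ± 0.15, limma adjusted p = 0.000393).

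The K2P family held both the largest difference of all channels and a decrease. Kcnk16 encodes TALK-1, a leak channel best known from pancreatic islet cells. It was at 268, 553 and 754 normalized counts in CCK+ libraries (lowest, median, highest) and at 0, 0.555 and 2.04 in CCK- libraries (log2 difference 8.34 ± 0.38 SE, limma adjusted p = 1.38e-09). Kcnk5, a leak channel of transporting epithelia, was called lower at 279, 418 and 759.8 against 599, 828 and 1071 (log2 difference -0.92 ± 0.17, limma adjusted p = 0.000649). The highest CCK+ library, that of fasted mouse B, reached into the CCK- range. Kcnk1, a weak rectifier, was called higher with overlap (104 to 320.4 against 54.1 to 143, limma adjusted p = 0.000964), as were Kcnk2, a mechanosensitive and lipid-sensitive channel (1.93 to 23.9 against 0 to 3.82, limma adjusted p = 0.00461), and Kcnk9, an acid-sensitive channel (1.91 to 8.16 against 0 to 2.98, limma adjusted p = 0.0065).

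Of the channels gated by calcium or sodium, 3 of 12 were called higher. That is 25%, near the 19.6% of all genes, so the count is not a result about this family. Kcnt1, a sodium-activated channel, was at 20.5 to 99.3 normalized counts in CCK+ libraries and was listed at 0 in all 6 CCK- libraries (limma adjusted p = 4e-07). Kcnmb2, an inactivating beta subunit of BK channels, was at 1.31 to 21.0 against 0 to 1.99 (limma adjusted p = 0.000269). Kcnma1, the BK pore itself and chosen here after its values were seen, was at 21.9 to 58.5 against 9.47 to 43.1 and was not called (limma adjusted p = 0.482). Kcnn4, an intermediate-conductance channel of secretory epithelia and lymphocytes, was at 18.9 to 72.2 against 7.22 to 39.0, with overlap (limma adjusted p = 0.025), and it lost its call without any 1 of 9 of the 12 libraries (all but CCK+ fasted A, CCK- fasted F and CCK- refed E), the CCK+ fasted library of mouse B included (limma adjusted p = 0.0717). The immune markers moved with it too, and their part in it was not tested.

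**Figure D2:**
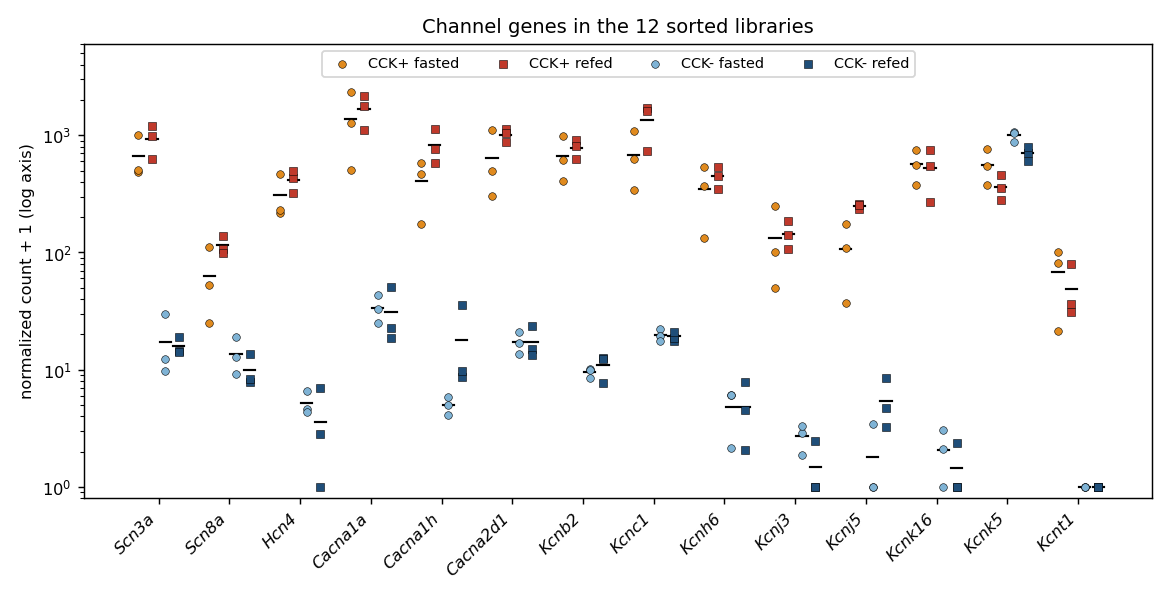
Normalized counts plus 1 (log axis) of 14 channel genes in each of the 12 sorted libraries, by group of 3 libraries; horizontal bars are group means. All CCK+ libraries (orange and red) lie above all CCK- libraries (blue) for 13 of these genes, and Kcnk5 lies lower in CCK+ cells.

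Genes that assemble with or regulate these channels were listed separately. 22 of 26 listed partners were in the table. Of these, 12 were called higher in CCK+ cells, 0 lower and 10 neither, where 19.6% of all genes were called higher and 14.1% lower. Their median log2 difference was 2.05 against 0.09 over all genes. Unc80, a subunit of the sodium leak channel complex, was at 83.7 to 361.9 normalized counts in CCK+ and 0 to 1.56 in CCK- libraries (limma adjusted p = 1.4e-08), while Nalcn, the pore of that complex, averaged 7.23 and 7.43 and was not called (limma adjusted p = 0.797). Fgf14, which binds sodium channels, averaged 198 and 3.14 (limma adjusted p = 4.26e-08), and Amigo1, an accessory protein of potassium channels, averaged 161 and 19.2 (limma adjusted p = 1.31e-07). The small GTPase Rem2, which inhibits calcium channels, was at 5.23 to 53.0 in CCK+ libraries and listed at 0 in all CCK- libraries (limma adjusted p = 1.14e-05).

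Upstream sequence was read for members called higher, since these genes move together between the populations. A RefSeq table of promoters (GRCm38.p6) held 82 of the 111 members, with 115 start sites. The 250 bases before each start were searched on both strands for CAGATG, an E-box bound by basic helix-loop-helix factors such as Neurog3 and Neurod1, and for TTCAGCACC, a part of the RE1 element bound by the repressor REST. The letters of the motifs do not overlap each other. CAGATG was in 14.4% of all 32851 promoters, in 13% of the 115 member promoters and in 16.3% of the 43 promoters of 28 members called higher. TTCAGCACC was in 0.301% of all promoters and in 1 member promoter. These promoters are shown because they belong to the channel with the largest difference (Kcnk16), the member with TTCAGCACC (Kcnh6), a calcium channel subunit with CAGATG at 2 places (Cacnb2) and a channel seen in Sst-gated cells (Kcnk2). Cacnb2 has another start site in the table and Kcnk2 has 3 others, and neither motif was found before any of them. The motif is in capitals, on the reverse strand as CATCTG, and each sequence runs 5′ to 3′ and ends at the base before the start site.
Kcnk16, chr14:20269270-20269519, minus strand: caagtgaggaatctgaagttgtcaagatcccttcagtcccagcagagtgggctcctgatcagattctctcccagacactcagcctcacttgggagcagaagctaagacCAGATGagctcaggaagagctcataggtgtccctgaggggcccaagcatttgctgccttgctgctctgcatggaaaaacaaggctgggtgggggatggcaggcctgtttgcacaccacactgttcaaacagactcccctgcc
Kcnh6, chr11:106007898-106008147, plus strand: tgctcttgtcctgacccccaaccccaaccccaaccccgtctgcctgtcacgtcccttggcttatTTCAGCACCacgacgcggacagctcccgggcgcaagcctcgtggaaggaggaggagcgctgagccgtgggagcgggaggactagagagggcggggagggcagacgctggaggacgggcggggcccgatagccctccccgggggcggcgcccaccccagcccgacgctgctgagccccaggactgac
Cacnb2, chr2:14823842-14824091, plus strand: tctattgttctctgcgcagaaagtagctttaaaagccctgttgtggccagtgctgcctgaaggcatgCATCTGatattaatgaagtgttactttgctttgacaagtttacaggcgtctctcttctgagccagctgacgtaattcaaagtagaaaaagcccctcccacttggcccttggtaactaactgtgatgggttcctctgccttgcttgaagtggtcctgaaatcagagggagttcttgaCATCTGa
Kcnk2, chr1:189402274-189402523, minus strand: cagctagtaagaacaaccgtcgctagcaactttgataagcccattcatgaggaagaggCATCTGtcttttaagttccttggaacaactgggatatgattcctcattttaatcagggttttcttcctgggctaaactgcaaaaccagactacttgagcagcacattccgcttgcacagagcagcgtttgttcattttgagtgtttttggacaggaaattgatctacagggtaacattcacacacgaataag
In these windows the motif begins 142 bases before the start in Kcnk16, 186 in Kcnh6, 183 and 7 in Cacnb2 and 192 in Kcnk2. The match is a description of letters and not of a bound site.

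The second comparison asked whether channel genes respond to refeeding. In CCK+ cells 1 channel was called higher and 1 lower in refed mice (limma, adjusted p under 0.05), which is 1.8% of the channels, where 2.55% of all genes were called. At an unadjusted p under 0.05 there were 17 of 111 channels (15.3%), against 16.9% of all genes. Both shares are near those of all genes, and the count of channels called ran from 0 to 6 with 1 library left out, so it is not a result about channels. Kcne1l, a single-pass accessory subunit of Kv channels, was listed at 0 in the 3 fasted CCK+ libraries and was at 3.41, 2.06 and 0.907 normalized counts in the refed ones (limma adjusted p = 0.0442). Cacna1f, the L-type pore of the retina, was at 5.25, 3.57 and 0.937 in fasted libraries and listed at 0 in the refed ones (limma adjusted p = 0.0485). Both genes were close to 0 in all libraries, and over the alternatives the adjusted p ran from 0.0218 to 0.163 for Kcne1l and from 0.0197 to 0.187 for Cacna1f. Neither was called without the CCK+ fasted library of mouse B or the CCK+ refed library of mouse D, nor without the CCK- library of mouse A, F, D or E.

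Other channels were not called. Kcnk1 was at 131, 104 and 194 in fasted and 232, 295 and 320.4 in refed libraries (limma adjusted p = 0.0919). Over the 111 channels, 8 (7.21%) had all refed CCK+ libraries above all fasted ones and 5 (4.5%) below, where 10.8% of all genes were separated upward and 8.61% downward, and the median log2 difference was 0.37 against 0.01 over all genes. The EEC markers moved the same way, with a sum of 172200 to 235400 in refed and 63920 to 144300 in fasted CCK+ libraries. Their part in these differences was not tested.

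In CCK- cells no channel was called for refeeding (limma, 0 of 111), where 1.23% of all genes were called, and 10 channels were at an unadjusted p under 0.05 against 12% of all genes. The 3 lowest p belonged to genes whose refed libraries all stood above the fasted ones. Cacnb4, a calcium channel beta subunit, was at 9.01, 1.18 and 1.08 normalized counts in fasted and 19.1, 18.8 and 18.8 in refed CCK- libraries (limma adjusted p = 0.095). It was called without the CCK- fasted library of mouse A (limma adjusted p = 0.0402). Cacna1h was at 4.88, 4.01 and 3.07 in fasted and 34.9, 7.65 and 8.73 in refed libraries (limma adjusted p = 0.208). Kcne3, an accessory subunit that opens Kcnq1 in secretory epithelium, was at 12.3, 15.0 and 31.0 in fasted and 99.0, 42.7 and 43.8 in refed libraries (limma adjusted p = 0.239). Among the partner genes, Ank3, an ankyrin that anchors sodium channels, was called lower on refeeding in both populations: it was at 1015, 1111 and 968 in fasted and 521, 475 and 450.0 in refed CCK+ libraries (limma adjusted p = 0.0273). In CCK- libraries it was at 1032, 1096 and 1786 in fasted and 602, 555 and 319 in refed mice (limma adjusted p = 0.0106).

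The difference of the feeding response between CCK+ and CCK- cells was tested as an interaction. No channel was called (limma, 0 of 111), where 0.00454% of all genes, a single gene, were called. At an unadjusted p under 0.05 there were 9 of 111 channels, against 6.25% of all genes. The lowest adjusted p was 0.637, for Cacna1f. A response in one population and not in the other was therefore not shown for any channel.

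**Figure D3:**
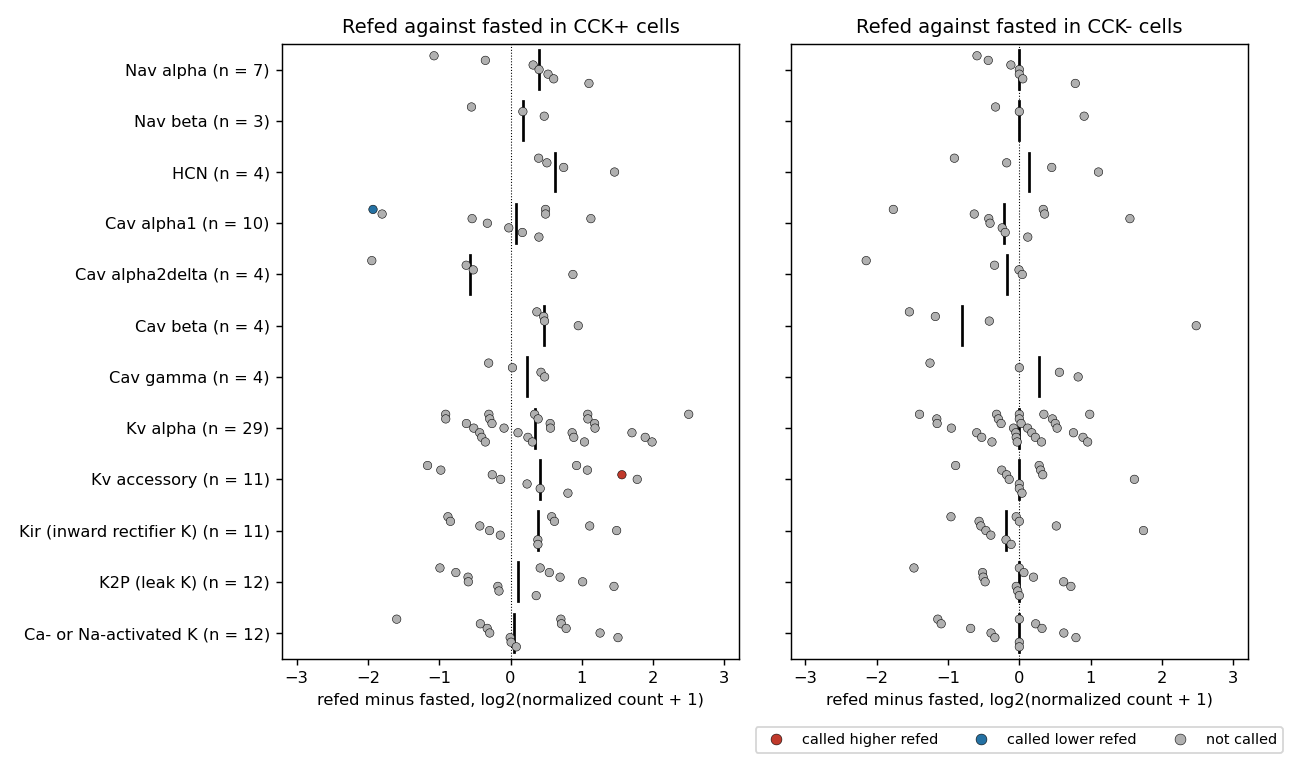
Log2 differences, refed minus fasted, in log2(normalized count + 1), of the 111 channel genes by family in CCK+ cells (left) and CCK- cells (right), with family medians as bars. 2 points are coloured as called, Kcne1l (red) and Cacna1f (blue) in CCK+ cells, and none in CCK- cells.

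The droplet library separates hormone classes that the bulk sort pools. All its barcodes were filtered, and 9451 had more than 1000 genes and under 10% mitochondrial UMIs (unique molecular identifiers, each a counted RNA molecule). Their median was 5984 UMIs, and they are called cells here. The paper used the same cut-offs and kept fewer cells, so this set includes barcodes outside the paper's cells. Which gates hold those barcodes was not tested, so gate sizes and shares of cells apply to this set alone. Cells were gated on hormone genes at 500 UMIs per 10000 or more (Tph1, the serotonin-synthesis enzyme, at 10), which gave 1246 Cck-gated, 197 Gip-gated, 350 Ghrl-gated, 60 Sst-gated and 2760 Tph1-gated cells, while 5392 passed no gate. The median UMIs were 6296, 6144, 6548.5, 5408.5 and 3366 in the gates and 7471.5 without a gate. 524 cells passed more than 1 gate, among them 268 Cck and Tph1 and 193 Cck and Ghrl, and doublets were not removed. Gates are thresholds and not cell types. The no-gate cells had goblet markers at 2119 and Paneth markers at 536 UMIs per 10000 and are mainly a secretory comparator. A goblet reference of 2025 no-gate cells with Muc2 at 10 UMIs per 10000 or more and Chga under 1, at a median of 6902 UMIs, and the free RNA of barcodes with 1 to 100 UMIs served as background. EEC markers were at 15.4 UMIs per 10000 in no-gate cells and 3.72 in the goblet reference. A ratio to no-gate cells is thus not a ratio to cells without EEC RNA. With 1 library there is no test, and the intervals given are 95% exact Poisson or exact binomial intervals that cover counting error alone.

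All 111 channels were found in the matrix by identifier, and 92 had a UMI in any of the cells. Their summed level was 9.22 UMIs per 10000 in Cck-gated, 7.93 in Gip-gated, 7.96 in Ghrl-gated, 9.49 in Sst-gated and 13.0 in Tph1-gated cells, against 3.86 in no-gate cells, 3.84 in the goblet reference and 5.46 in free RNA. Channels were then counted at a level at least 2 times that of no-gate cells, with 20 UMIs or more in the gate. Of the 111 channels, those without a UMI included, 29 reached it in the Cck gate and 7 in the Gip gate. It was reached by 18 in the Ghrl gate, 4 in the Sst gate and 30 in the Tph1 gate. The shares of all 18413 detected genes were 14.6%, 5.62%, 9.08%, 2.67% and 19.5%, in the same order. In the Gip and Sst gates the channels were near the share of all genes. The number of cells per gate sets how many genes can reach 20 UMIs, so these counts do not rank the gates. A level at least 2 times lower than in no-gate cells was counted where at least 20 UMIs would be present at the no-gate level. It was seen for 6 of 111 channels in the Cck gate, 3 in Gip, 4 in Ghrl, 1 in Sst and 6 in Tph1. The shares of all detected genes were 6.2%, 3.32%, 5.49%, 1.56% and 4.3%, and the channels were near them.

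A common set was present in every hormone gate. Cacna2d1 was at 1.83, 1.64, 1.40, 1.16 and 3.10 UMIs per 10000 in the Cck, Gip, Ghrl, Sst and Tph1 gates and 0.107 in no-gate cells. It had a UMI in 66.0% of Cck-gated and 65.7% of Tph1-gated cells and in 3.26% of the goblet reference, and with cells thinned to 2000 UMIs these shares were 30.9%, 45.7% and 0.642%. Cacna1a was at 1.35, 1.29, 1.16, 1.16 and 1.39 against 0.104, and Kcnb2 at 0.797, 0.716, 0.848, 1.10 and 0.938 against 0.0459. These 3 genes were at 10.85 times the no-gate level or more in every gate. Free RNA held Cacna2d1 at 0.628, Cacna1a at 0.314 and Kcnb2 at 0.229, above the no-gate cells and below each gate.

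**Figure D4:**
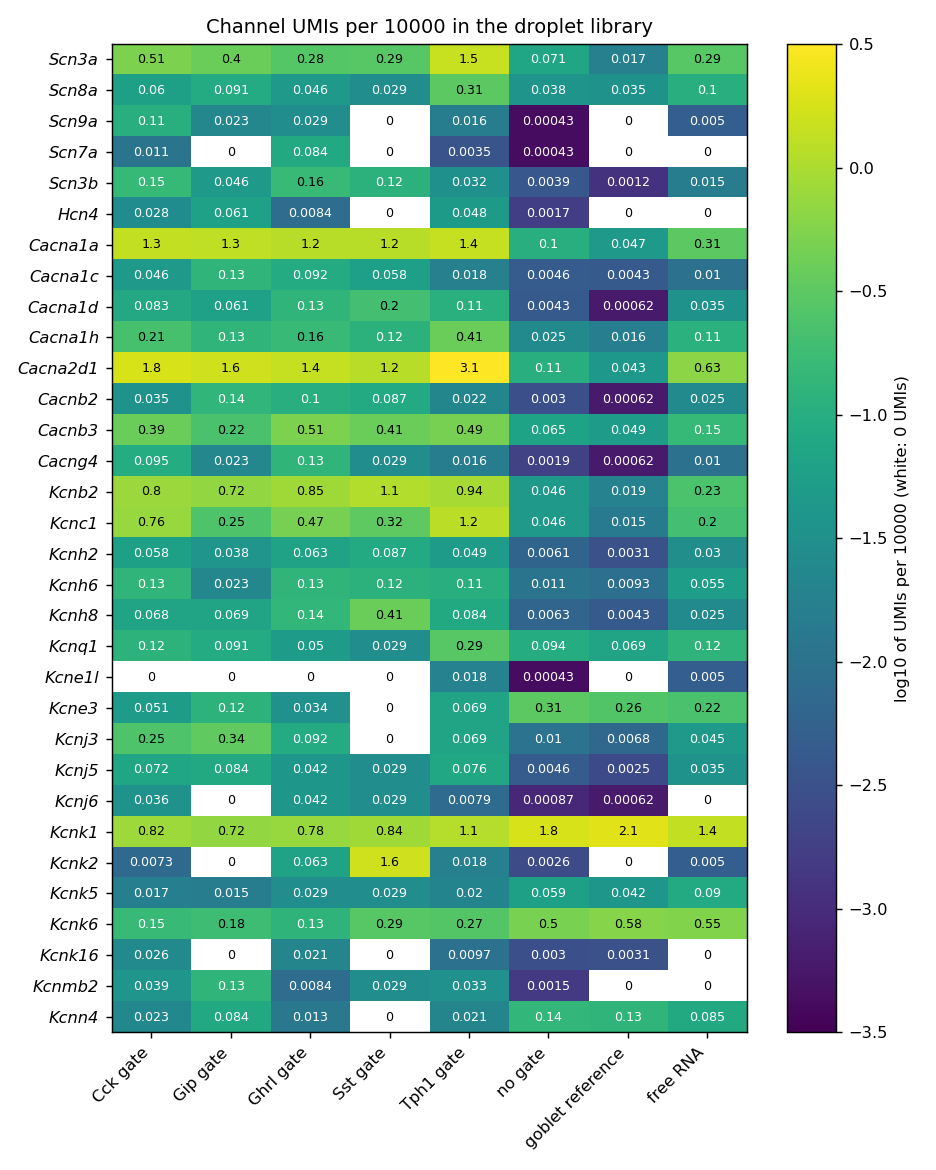
UMIs per 10000 (printed, with colour on a log10 scale) of 32 channel genes in cells of the 5 hormone gates, in cells that passed no gate, in the goblet reference and in free RNA; white cells are 0 UMIs. Cacna2d1, Cacna1a and Kcnb2 are high in every gate, Kcnk2 is at 1.63 in the Sst gate and at or below 0.0630 elsewhere, and Kcnk1, Kcnk6, Kcne3 and Kcnn4 are higher outside the gates.

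Other channels differed between gates, sodium channels among them. Scn3a was at 1.48 (1.41 to 1.55) UMIs per 10000 in the Tph1 gate and 0.513 (0.465 to 0.564) in the Cck gate, against 0.0708 in no-gate cells. Scn8a was also highest in the Tph1 gate, at 0.311 against 0.0595 in the Cck gate and 0.0377 in no-gate cells. Scn9a was instead highest in the Cck gate, at 0.106 (0.0846 to 0.130), against 0.0158 in the Tph1 gate and 2 UMIs in all no-gate cells (ratio 243.9, interval 65.5 to 2046). It had a UMI in 5.22% (4.05 to 6.60%) of Cck-gated cells and in 0 of 2025 goblet reference cells, so the share could be up to 0.148%. In cells that passed the Cck gate alone Scn9a was at 0.117, and in cells of the Tph1 gate alone at 0.00107. Scn7a was highest in the Ghrl gate, at 0.0840 (20 UMIs) and at 0.156 in the 134 cells that passed that gate alone, against 2 UMIs in no-gate cells (ratio 193.9, interval 47.1 to 1711).

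Pacemaker and calcium channels varied too. Hcn4 was at 0.0483 UMIs per 10000 in the Tph1 gate and 0.0279 in the Cck gate, 27.9 and 16.1 times the no-gate level, and at 0.0609 in the Gip gate from 8 UMIs (0.0263 to 0.12). Cacna1h was at 0.407 in the Tph1 and 0.215 in the Cck gate against 0.0249. The L-type pore Cacna1c was at 0.129 in the Gip gate and 0.0176 in the Tph1 gate, with intervals of 0.0754 to 0.207 and 0.0107 to 0.0271. Cacng4, a gamma subunit not called in the bulk data, was at 0.130 in the Ghrl and 0.0948 in the Cck gate, 66.8 and 48.6 times the no-gate level.

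Potassium channels differed between gates as well. Kcnk2 was at 1.63 (1.23 to 2.11) UMIs per 10000 in the Sst gate and 0.00260 in no-gate cells, 625.4 times higher (interval 331 to 1282). It had a UMI in 53.3% of the 60 Sst-gated cells (40.0 to 66.3%) and in 0 of 2025 goblet reference cells, which allows up to 0.148%. The Ghrl gate was next at 0.0630, but in the 134 cells that passed the Ghrl gate alone there was no UMI (which allows up to 0.0293), and in the 35 cells of the Sst gate alone the level was 2.04. Of the GIRK subunits, Kcnj3 was also uneven. Kcnj3 was at 0.335 (0.243 to 0.450) in the Gip gate, 0.254 in the Cck gate, 0.0924 in the Ghrl gate and 0.0694 in the Tph1 gate. In cells that passed 1 gate alone it was at 0.365 (Gip), 0.273 (Cck), 0.0196 (Ghrl, 2 UMIs) and 0.0416 (Tph1). Kcnj5 was at 15.75, 18.41, 9.23 and 16.6 times the no-gate level in the Cck, Gip, Ghrl and Tph1 gates, with overlapping intervals. Kcnj6 was at 0.0364 in the Cck gate against 4 UMIs in all no-gate cells. Kcnc1 was at 1.23 in the Tph1 gate and 0.762 in the Cck gate, 26.5 and 16.4 times the no-gate level. Kcne1l had 21 UMIs in Tph1-gated cells and none in the other 4 gates, where 2 UMIs in no-gate cells give a ratio of 42.6 (interval 10.4 to 374.6).

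Some channels lay lower in the hormone gates than in the other cells. Kcnk1 was at 0.824, 0.716, 0.777, 0.842 and 1.13 UMIs per 10000 in the Cck, Gip, Ghrl, Sst and Tph1 gates, 1.80 in no-gate cells and 2.08 in the goblet reference. It had a UMI in 38.5% of Cck-gated and 71.2% of goblet reference cells, or 14.5% and 33.5% after thinning. Kcne3 was at 0.0510 in the Cck and 0.0685 in the Tph1 gate against 0.306, and Kcnn4 at 0.0231 and 0.0211 against 0.142. Kcnk5 was at 0.0170 and 0.0202 against 0.0591. Kcnk6, a leak channel chosen here after its values were seen, was at 0.154 and 0.269 against 0.501.

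Set side by side, the sort and the gates agreed in direction for most channels that were enriched in the Cck gate, and not for some others. Most channels at least 2 times above no-gate cells in the Cck gate were also called higher in CCK+ libraries. Kcnk5 was lower in CCK+ than in CCK- libraries and lower in the Cck gate than in no-gate cells. Kcnk1 and Kcnn4 were called higher in CCK+ libraries, yet in the Cck gate they were 2.18 and 6.17 times lower than in no-gate cells. The comparators differ, since enterocyte markers were high in CCK- libraries (449600 to 627200 normalized counts) and goblet and Paneth markers in no-gate cells. Kcnk16, with the largest bulk difference, had 21 UMIs in the Cck gate (0.0255 per 10000) and 14 in no-gate cells. That is 8.41 times the no-gate level (interval 4.08 to 17.9). Kcnt1 had 13 and 7 UMIs. The Cck gate held 8232439 UMIs in all and the no-gate cells 46158251, so per UMI both channels were higher in the Cck gate. This is the same direction as in the sort. Both channels are thus sparse in the droplet data, where a UMI was seen in 1.69% and 1.04% of Cck-gated cells.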

How the data were processed

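For the bulk libraries, the authors trimmed reads with Trim Galore 0.6.7, mapped them to GRCm39 cDNA with Salmon 1.6.0, imported gene totals through tximeta, dropped genes that had 0 or 1 count in all, and applied DESeq2 normalization factors. The deposited values are this normalized signal; they are not whole counts, and the depth in reads is unknown, so library sums of 7061155 to 11371114 are on the authors' scale. Here limma 3.58.1 (trended empirical Bayes, R 4.3.3) was fitted to 4 group means with a pseudocount of 1 and 8 residual degrees of freedom. Public titles name all bulk groups CCK+; the cell-type labels and the table's own group names were used. The mouse letter pairs the libraries, so fits with mouse as a block were run. Over genes, deviations from the group mean in a mouse's CCK+ and CCK- library correlated at 0.0773 to 0.124. Other pairs were at -0.0184 or below. With only 3 libraries per group mean, positive same-mouse pairs push the other pairs below 0, so the sign of those pairs adds no separate evidence. Each bulk group was 3 mice, and p-values measure the spread between them.

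For the droplet library, the deposited UMI counts per gene and barcode came from Cell Ranger 2.0.1 (mm10), with all barcodes present. Levels are summed UMIs per 10000, with Python 3.11.15. The confidence level was 95% and the limit for a count of 0 was 3 counts. The depth behind each gate is the number of cells and median UMIs given in the text.

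Per family, the 5 channels with the lowest adjusted p called in each direction were named. Every channel called for refeeding or the interaction (or the 3 lowest p of each) was added, and 11 channels were fixed by name. Per gate, the 5 most abundant channels and the 5 with the highest ratio to no-gate cells were named, among those with at least 20 UMIs in the gate. Such a ratio was picked for its size, and its interval does not cover that choice. The channels, lists and tests were chosen with earlier results of these data known. The test scripts were tested on simulated data. Some channels counted here are not reported by name.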

Additional observations from a re-analysis of the deposited data

How the results depend on the processing

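The count of channels called between CCK+ and CCK- cells (51) was 25 in fasted and 43 in refed libraries alone, both with fewer libraries. It was 38 to 55 under the other alternatives that kept all libraries. The 38 came from the filter on a mean of at least 10 normalized counts, which left 59 channels untested. Among the channels tested there, 0 calls were lost and 2 gained. Leaving out 1 library gave 49 to 57. Without the CCK+ fasted library of mouse B there were 57, with 50 higher and 7 lower. With mouse as a replicate block the count was 53 (random block, with Scn11a and Kcng3 added) or 50 (fixed term, with Cacna2d2 added and 2 lost, among them Kcne1l). The block as a random term changed no call for refeeding or the interaction; a fixed term cannot be fitted for refeeding, since each mouse had 1 feeding state.

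For refeeding in CCK+ cells (2 called) the count was 0 with a pseudocount of 5. It was 0 among genes with a mean of at least 10, where Kcne1l and Cacna1f were not tested. Scaling each library to its own sum gave 4, quantile normalization 0 and a fit without the mean-variance trend 1. The count was 0 in CCK+ libraries alone, and 0 to 6 with 1 library left out. It was 6 without the CCK+ fasted library of mouse A. In CCK- cells (0 called) it was 0 to 1 with 1 library left out, and for the interaction 0. The median over all genes between populations was 0.09, 0.16 after scaling to the library sum and -0.14 after quantile normalization.

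Thinning to 2000 UMIs, which leaves fewer genes with 20 UMIs, lowered the channels 2-fold above no-gate cells from 29 to 17 (Cck), 7 to 3 (Gip), 18 to 6 (Ghrl) and 4 to 1 (Sst). Cells that passed 1 gate gave 4 (Gip) and 5 (Ghrl), doubled thresholds 9 (Ghrl), and a minimum of 500 genes 11 (Gip). The other droplet counts stayed within 1.5 times.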

Other observations

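Cells of a gate that held a UMI of a channel were compared with the rest of that gate, as a description with no test, since depth differs between them. The 19 Ghrl-gated cells with a Scn7a UMI (median 9086 UMIs) had Ghrl at 3411 and Cck at 286 UMIs per 10000, and the 331 without one (median 6473) had Ghrl at 1938 and Cck at 820.2. The 65 Cck-gated cells with a Scn9a UMI (median 7100 UMIs) had Pyy at 4.09, Chga at 5.22 and Gip at 24.1 UMIs per 10000, and the 1181 without one (median 6255) had Pyy at 18.9, Chga at 12.9 and Gip at 56.3. The 32 Sst-gated cells with a Kcnk2 UMI had Gip at 27.0 and Pyy at 60.3 UMIs per 10000, and the 28 without one had Gip at 126 and Pyy at 167, with Sst at 2431 and 2396. Ghrl went the other way, at 395 and 320. These are UMIs summed over few cells, so single cells can weigh heavily. In the whole Sst gate, 2 cells also passed the Gip gate, and their part in the Gip difference was not tested.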
